A study of Mus musculus with 15 samples.

Results

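The genes of 9 acute-phase proteins were followed in arthritic forelimb joints of the mouse: the serum amyloid A genes Saa3, Saa1 and Saa2, the siderophore-binding lipocalin Lcn2, haptoglobin (Hp), orosomucoid (Orm1), the serine protease inhibitor Serpina3n, the leucine-rich glycoprotein Lrg1 and the lipopolysaccharide-binding protein Lbp. They are 9 of the 26688 genes of the count table and were chosen by name, as genes of secreted acute-phase proteins. All 9 had reads, and 8 passed the filter on low counts; Saa2 did not. Messenger RNA was sequenced in 15 libraries of forelimb joint tissue from DBA/1 male mice with the label WT, 8 weeks of age, in 3 groups of 5. CIA+F20 mice had collagen-induced arthritis and received F20, a compound known here only by its code name, at 10 mg/kg by mouth once daily for 21 days. CIA mice had the arthritis without F20. Both arthritic groups had been immunized and boosted with bovine type II collagen in complete or incomplete Freund's adjuvant, and entered the study at an arthritis index over 5. Healthy mice were not immunized, so effects of the arthritis and of the adjuvant cannot be told apart. No vehicle for the CIA group is named in the labels. The labels do not state whether the libraries of a group are separate mice, and p-values then measure only how libraries vary, which may be technical.

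Acute-phase proteins are plasma proteins whose synthesis changes sharply in inflammation. The liver is their best-known source, where interleukin-6 acting through STAT3, and interleukin-1 and tumour necrosis factor acting through NF-kB and C/EBP factors, switch on their genes. Several are also made outside the liver: Saa3 in mouse macrophages, fat cells and stromal cells, Lcn2 and haptoglobin in developing neutrophils, which store the proteins in their granules, and Serpina3n, Lrg1 and Lbp in many stimulated epithelial, endothelial and stromal cells. In an inflamed joint these proteins bind iron carriers, haemoglobin, proteases or bacterial lipids.

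The libraries held 18627303 to 34247317 counted reads. Joint and bone markers, among them lubricin (Prg4), summed to 186 to 881 CPM (reads of a gene scaled to an equal library size) in CIA+F20, 803 to 2563 in CIA and 47.1 to 814 in healthy libraries, with the lowest value in healthy 4, which also had the lowest Prg4 level, 17.7 CPM. Skeletal muscle markers summed to 95950 to 121200, 49190 to 111100 and 105800 to 127800 CPM in CIA+F20, CIA and healthy, with the lowest values in CIA 4 and CIA 2. Markers of granulocyte precursors, neutrophils in the making, summed to 306 to 1067, 395 to 4621 and 39.9 to 513 CPM in the same order, with healthy 3 the highest healthy library. In bulk tissue a change in the number of cells of a type and a change in RNA per cell cannot be told apart. Healthy 3 also stood apart in keratinocyte markers, a sign of skin, which summed to 2.76 to 3.48 CPM in CIA+F20, 1.41 to 2.73 in CIA and 2.15 to 48.8 in healthy libraries, the highest in healthy 3.

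The acute-phase genes spanned very different levels. In CIA+F20 joints the mean level per kilobase of the canonical transcript was 75.7 CPM for Lcn2, 27.1 for Hp, 10.1 for Serpina3n, 6.73 for Lbp, 6.02 for Lrg1, 3.04 for Saa3, 2.45 for Orm1, 0.745 for Saa1 and 0.189 for Saa2. In CIA joints it was 205 CPM per kilobase for Lcn2, 96.7 for Hp, 79.3 for Serpina3n, 33.3 for Saa3, 13.9 for Lbp, 11.2 for Lrg1, 7.09 for Saa1, 5.26 for Orm1 and 1.79 for Saa2. In healthy joints it was 15.4 CPM per kilobase for Hp, 14.9 for Lcn2, 5.47 for Lbp, 4.47 for Serpina3n, 3.95 for Lrg1, 1.37 for Orm1, 0.153 for Saa1, 0.0526 for Saa3 and 0.0283 for Saa2. Lcn2 and Hp headed the order in all 3 groups, and Saa3 was the fourth in CIA and the eighth in healthy. In CIA, neighbours in the order differed by less than the larger SD of the genes compared. The same held in CIA+F20 except between Lcn2 and Hp, Hp and Serpina3n, and Orm1 and Saa1, and in healthy except between Lrg1 and Orm1, and Saa1 and Saa3.

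**Figure D1:**
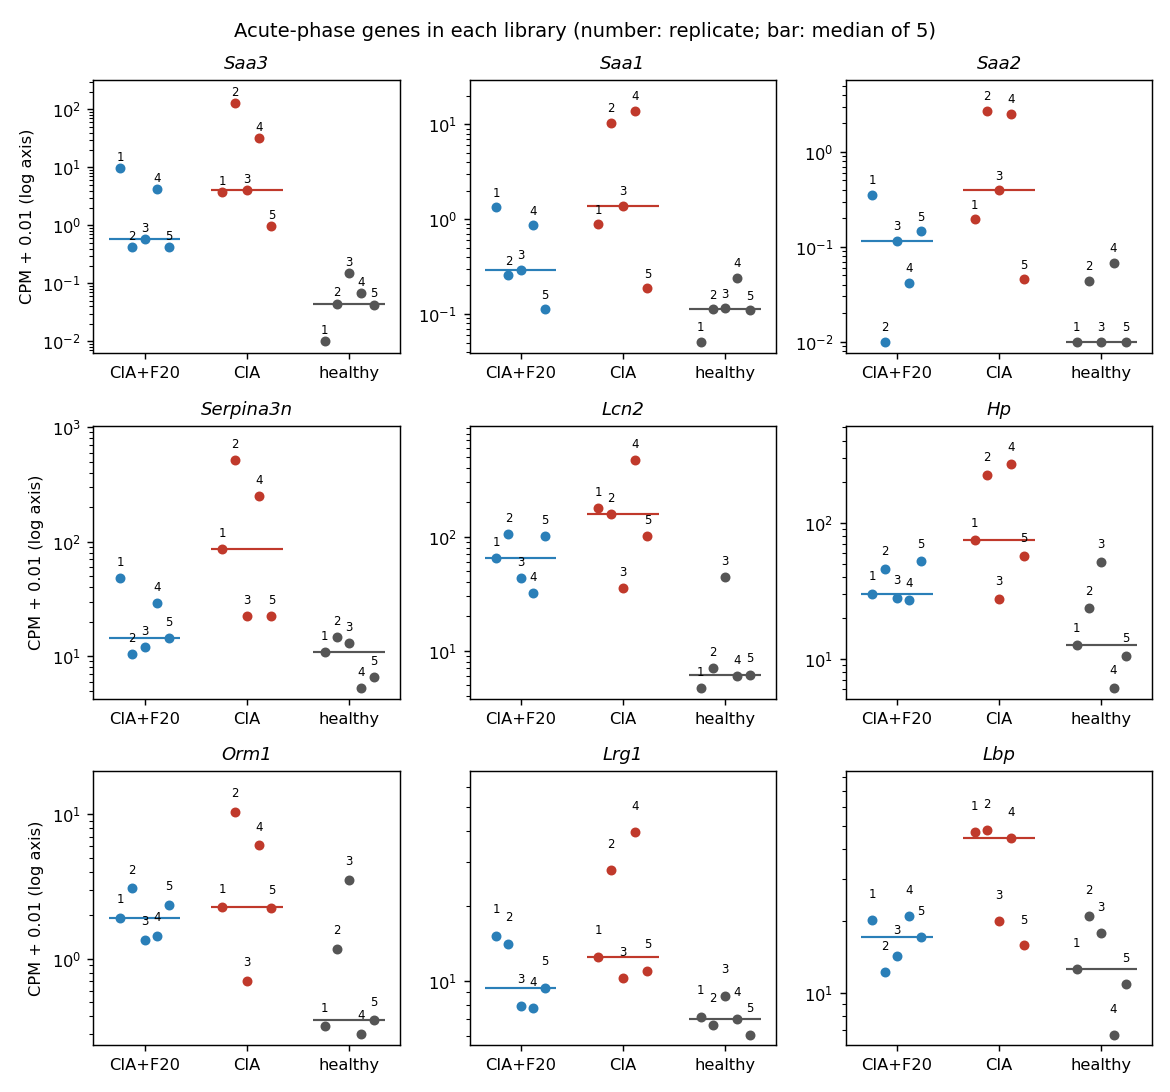
Level of each acute-phase gene in every library, in CPM on a log axis, with CIA+F20 on the left, CIA in the middle and healthy on the right of each panel; points are libraries, numbered by replicate, and bars are group medians (0.01 CPM was added to draw values of 0). Saa3, Serpina3n and Lrg1 have every CIA point above every healthy point, and CIA 2 and CIA 4 are the highest CIA libraries in most panels.

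Of the 9 genes, 8 were called higher in CIA than in healthy joints by edgeR's quasi-likelihood test at an adjusted p under 0.05, and none was called lower; of all 15770 tested genes, 26% were called higher and 19.5% lower. The last, Saa2, was too low for that test. Saa3 and Saa1 had at most 4 reads in any healthy library and passed the filter only through arthritic libraries. A call of lower in CIA was therefore not open to them. With a filter of at least 1 CPM in 5 libraries 7 were called higher, and in a fit of only CIA and healthy 6. The median log2 fold change of the 8 tested genes was 3.21, against 0.07 over all tested genes. In CIA+F20 against CIA, 5 of the 9 were called lower (Saa3, Saa1, Serpina3n, Hp and Lbp) and none higher, where 15.5% of all tested genes were called lower and 14.1% higher. There the median log2 fold change was -1.64, against -0.06 over all genes. In CIA+F20 against healthy none of the 9 was called, and neither was any other gene by edgeR (0% in either direction; 1388 genes had an unadjusted p under 0.05, and DESeq2 called 124). The median log2 fold change of the 8 was 0.99 there, against 0.01 over all genes. The comparisons share libraries, since each group enters 2 of the 3.

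**Figure D2:**
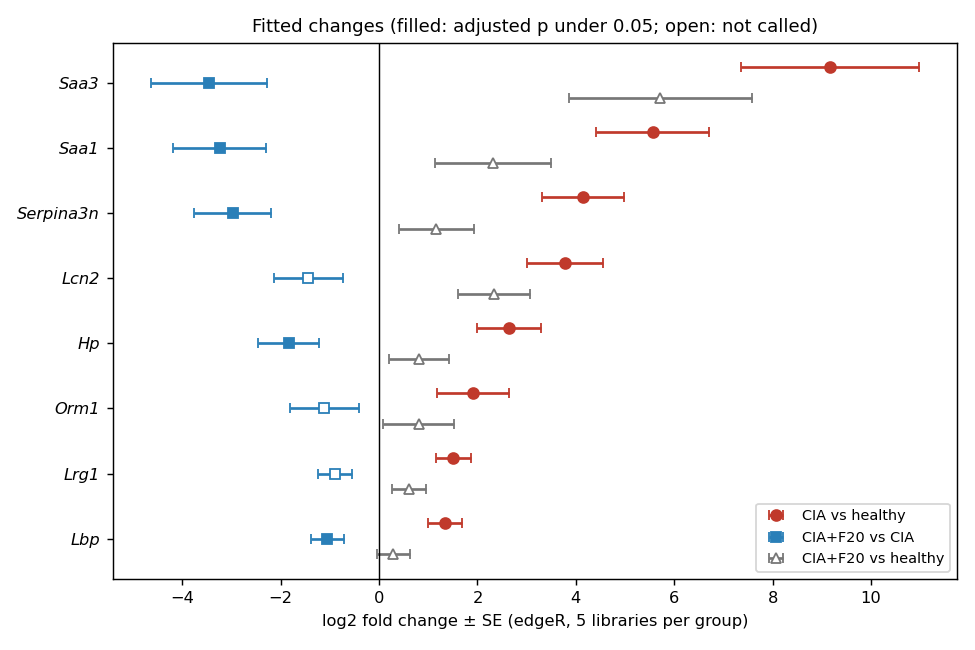
Log2 fold change (points) with its standard error (bars) for the 8 tested acute-phase genes in CIA against healthy, CIA+F20 against CIA and CIA+F20 against healthy, from the edgeR fit; filled points passed an adjusted p under 0.05. Saa3 stands at 9.17 in CIA against healthy and -3.45 in CIA+F20 against CIA, and all 8 genes lie above 0 in CIA against healthy and below 0 in CIA+F20 against CIA.

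Saa3, Saa1 and Saa2 encode apolipoproteins that ride on high-density lipoprotein and can signal through formyl peptide and Toll-like receptors. They lie together within 42.3 kb of chromosome 7 on GRCm39: Saa3 (ENSMUSG00000040026) at 46361422 to 46365124 on the minus strand, Saa1 (ENSMUSG00000074115) at 46389921 to 46392404 on the minus strand and Saa2 (ENSMUSG00000057465) at 46401214 to 46403737 on the plus strand. The canonical transcripts of Saa1 and Saa2 are 94.8% identical, with a longest identical run of 76 bases, while Saa3 is 76.5% identical to Saa1 and 77.7% to Saa2. Saa1 and Saa2 also overlap the minus-strand noncoding gene Gm74180, and the strand setting of the counting is not given in the sources used here, so their split of reads is less certain than that of Saa3. The promoters of all 3 are shown because these neighbouring genes were highest in the same CIA libraries, with that of Lcn2 for comparison. Each is 250 bases before to 50 bases after the gene's start, from RefSeq on GRCm38.p6, read along the gene's strand, and capitals mark a match to the C/EBP motif TTNNGCAA or its reverse TTGCNNAA.
Saa3, chr7:46715627-46715926, minus strand: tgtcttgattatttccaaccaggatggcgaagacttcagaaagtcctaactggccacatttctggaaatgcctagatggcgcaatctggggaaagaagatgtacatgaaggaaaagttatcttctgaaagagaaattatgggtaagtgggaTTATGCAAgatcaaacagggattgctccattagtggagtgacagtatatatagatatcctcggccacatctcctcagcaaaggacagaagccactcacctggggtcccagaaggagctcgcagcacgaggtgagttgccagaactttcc
Saa1, chr7:46742931-46743230, minus strand: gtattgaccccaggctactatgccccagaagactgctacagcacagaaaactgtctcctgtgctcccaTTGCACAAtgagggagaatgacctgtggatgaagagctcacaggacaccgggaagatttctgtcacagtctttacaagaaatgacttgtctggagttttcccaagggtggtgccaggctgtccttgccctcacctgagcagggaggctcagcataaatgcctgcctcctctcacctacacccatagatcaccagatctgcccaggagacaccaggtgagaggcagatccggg
Saa2, chr7:46751583-46751882, plus strand: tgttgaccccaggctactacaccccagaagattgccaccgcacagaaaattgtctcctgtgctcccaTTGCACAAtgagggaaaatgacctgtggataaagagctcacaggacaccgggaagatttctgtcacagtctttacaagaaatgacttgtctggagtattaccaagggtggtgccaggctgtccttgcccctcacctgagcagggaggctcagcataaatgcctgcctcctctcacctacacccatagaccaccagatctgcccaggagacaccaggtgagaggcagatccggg
Lcn2, chr2:32387690-32387989, minus strand: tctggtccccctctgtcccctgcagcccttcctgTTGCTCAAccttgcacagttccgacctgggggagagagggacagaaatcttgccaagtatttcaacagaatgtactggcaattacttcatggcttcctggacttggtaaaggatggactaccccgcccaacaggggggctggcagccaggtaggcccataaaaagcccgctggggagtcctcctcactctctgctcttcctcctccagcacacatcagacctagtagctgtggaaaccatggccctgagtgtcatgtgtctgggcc

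The C/EBP match began at position -99 of Saa3, -182 of Saa1, -183 of Saa2 and -216 of Lcn2, counted from the gene's start. RefSeq promoters matched 6 of the 9 genes, Serpina3n and Lrg1 being the others, and 4 of the 6 held a C/EBP match on either strand, where 10.8% of the 32851 promoters of the table did. None of the 6 held the STAT motif TTCNNNGAA or the NF-kB consensus on either strand, which 8.3% and 8.46% of all promoters held. Saa1 and Saa2 shared the same letters, TTGCACAA, in nearly the same place. Their windows are near-copies, so their matches are not independent of each other in the 4 of 6. A match of letters is a description of the sequence and was not tested as a binding site, and a motif not found says only that these letters are not in this window.

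Saa3, the amyloid A gene that mouse tissues other than liver express, had the largest fold change in CIA against healthy of the 8 tested genes. It had 9.71, 0.409, 0.566, 4.22 and 0.409 CPM in CIA+F20 1 to 5, against 3.73, 127, 4.03, 32.0 and 0.957 CPM in CIA 1 to 5. Healthy 1 to 5 had 0, 0.0340, 0.139, 0.0581 and 0.0331 CPM, which were 0, 1, 4, 1 and 1 reads. Every CIA and every CIA+F20 library was above every healthy one, while the CIA and CIA+F20 libraries overlapped. The CIA libraries differed 132-fold among themselves and the CIA+F20 libraries 23.8-fold. The means were 3.06 ± 4.06 CPM in CIA+F20, 33.5 ± 53.6 in CIA and 0.0529 ± 0.0526 in healthy (SD, n = 5 each). Saa3 rose in CIA against healthy by 9.17 ± 1.81 on the log2 scale (edgeR adjusted p = 0.00137). With a handful of healthy reads, that fold change is loosely fixed, and it ran from 7.45 without CIA 2 to 9.93 without healthy 3, past the threshold each time.

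Saa3 fell in CIA+F20 against CIA by 3.45 ± 1.18 on the log2 scale (edgeR adjusted p = 0.0400). That call rested largely on CIA 2: without it the log2 fold change was -1.73 and the edgeR adjusted p was 0.219. It also ended without CIA 4, without CIA+F20 2, 3, 4 or 5, or without healthy 1, 2 or 5, with an edgeR adjusted p of at least 0.0501. In CIA+F20 against healthy the log2 fold change was 5.71 ± 1.86 (edgeR adjusted p = 0.368; DESeq2 adjusted p = 0.00726), with all 5 CIA+F20 libraries above all 5 healthy ones, an arrangement that 1.98% of all tested genes showed.

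Saa1 encodes a circulating amyloid A protein that the liver makes in large amounts in a systemic response. Saa1 had 1.33, 0.245, 0.283, 0.856 and 0.102 CPM in CIA+F20 1 to 5, against 0.876, 10.4, 1.38, 13.9 and 0.177 CPM in CIA 1 to 5. The healthy libraries had 0.0410, 0.102, 0.105, 0.232 and 0.0993 CPM, or 1 to 4 reads each. CIA 4 and CIA 2 carried most of the Saa1 reads, and CIA 5 lay within the healthy range. Saa1 means were 0.564 ± 0.517 CPM in CIA+F20, 5.36 ± 6.37 in CIA and 0.116 ± 0.0703 in healthy (SD, n = 5 each). Saa1 rose in CIA against healthy by 5.56 ± 1.14 (log2, edgeR adjusted p = 0.00173). It fell in CIA+F20 against CIA by 3.24 ± 0.94 (log2, edgeR adjusted p = 0.0213), a call that ended without CIA 2 (edgeR adjusted p = 0.0542) or CIA 4 (0.0600). Its log2 fold change in CIA+F20 against healthy was 2.32 ± 1.18 (edgeR adjusted p = 0.609).

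Saa2, the near-copy of Saa1, had 9, 0, 3, 1 and 4 reads in CIA+F20 1 to 5, against 4, 82, 10, 68 and 1 in CIA 1 to 5 and 0, 1, 0, 1 and 0 in healthy 1 to 5. As for Saa1, CIA 2 and CIA 4 held most of the reads. The ratio of summed Saa2 CPM was 80.4 for CIA over healthy (counting interval 21.9 to 670; exact two-sided permutation p = 0.0159, adjusted over the 3 comparisons 0.0477). The ratio for CIA+F20 over CIA was 0.0982 (0.0558 to 0.162; exact permutation p = 0.0952, adjusted 0.119) and that for CIA+F20 over healthy was 7.90 (1.87 to 70.5; exact permutation p = 0.119, adjusted 0.119). The intervals cover counting error only, and the smallest p that 5 libraries against 5 allow is 0.00794. When any 1 of the healthy libraries was left out, the exact permutation p of CIA over healthy was 0.175 to 0.183, with log2 ratios from 5.66 to 7.10. With healthy as the smaller group that p could not pass the threshold. Every division that put CIA 2 and CIA 4 into the smaller group gave a larger difference of means than the real one. Those p-values therefore do not measure how stable the rise was. When any 1 of the CIA libraries was left out instead, the exact permutation p was 0.00794 to 0.0159, with log2 ratios from 5.40 to 6.30. Of the reads of Saa1 and Saa2 together, Saa1 took 82.3% in CIA+F20 (79 of 96 reads, exact 95% interval 73.2 to 89.3%), 82% in CIA (753 of 918, 79.4 to 84.5%) and 87.5% in healthy (14 of 16, 61.7 to 98.4%). The counting intervals of the 3 shares overlapped.

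The amyloid A genes, Serpina3n and the interleukin-6 signalling genes Il6 and Socs3 were highest in CIA 2 and CIA 4 and, among CIA+F20 libraries, in CIA+F20 1. In CIA+F20, Saa3 and Saa1 both ran CIA+F20 1, 4, 3, 2, 5 from high to low, and in CIA both ended with libraries 3, 1 and 5 after CIA 2 and CIA 4. Il6 itself ran 4, 2, 3, 1, 5 in CIA, the order of Saa1, and was highest in CIA+F20 1 and CIA+F20 4. Likeness was measured by the root-mean-square difference of centred log2 CPM over the 15 libraries. Only genes with a mean log2 CPM of at least 1 could be named, which left out Saa1, Saa3, Orm1 and Il6, among others, as neighbours. Of the genes compared, those most like Saa1 were Mt1, a metallothionein (0.76), Socs3, the feedback inhibitor of STAT3 signalling (0.792), and Serpina3n (0.899). The spread of Saa1 itself was 2.13. Those most like Saa3 were Timp1 (1.58), Serpina3n (1.63) and Serpinb1a (1.67), against a spread of 3.24. Saa1, below that level, lay nearer to Saa3 (1.37). Depth and tissue make-up are shared by all genes of a library, so these distances are descriptions.

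**Figure D3:**
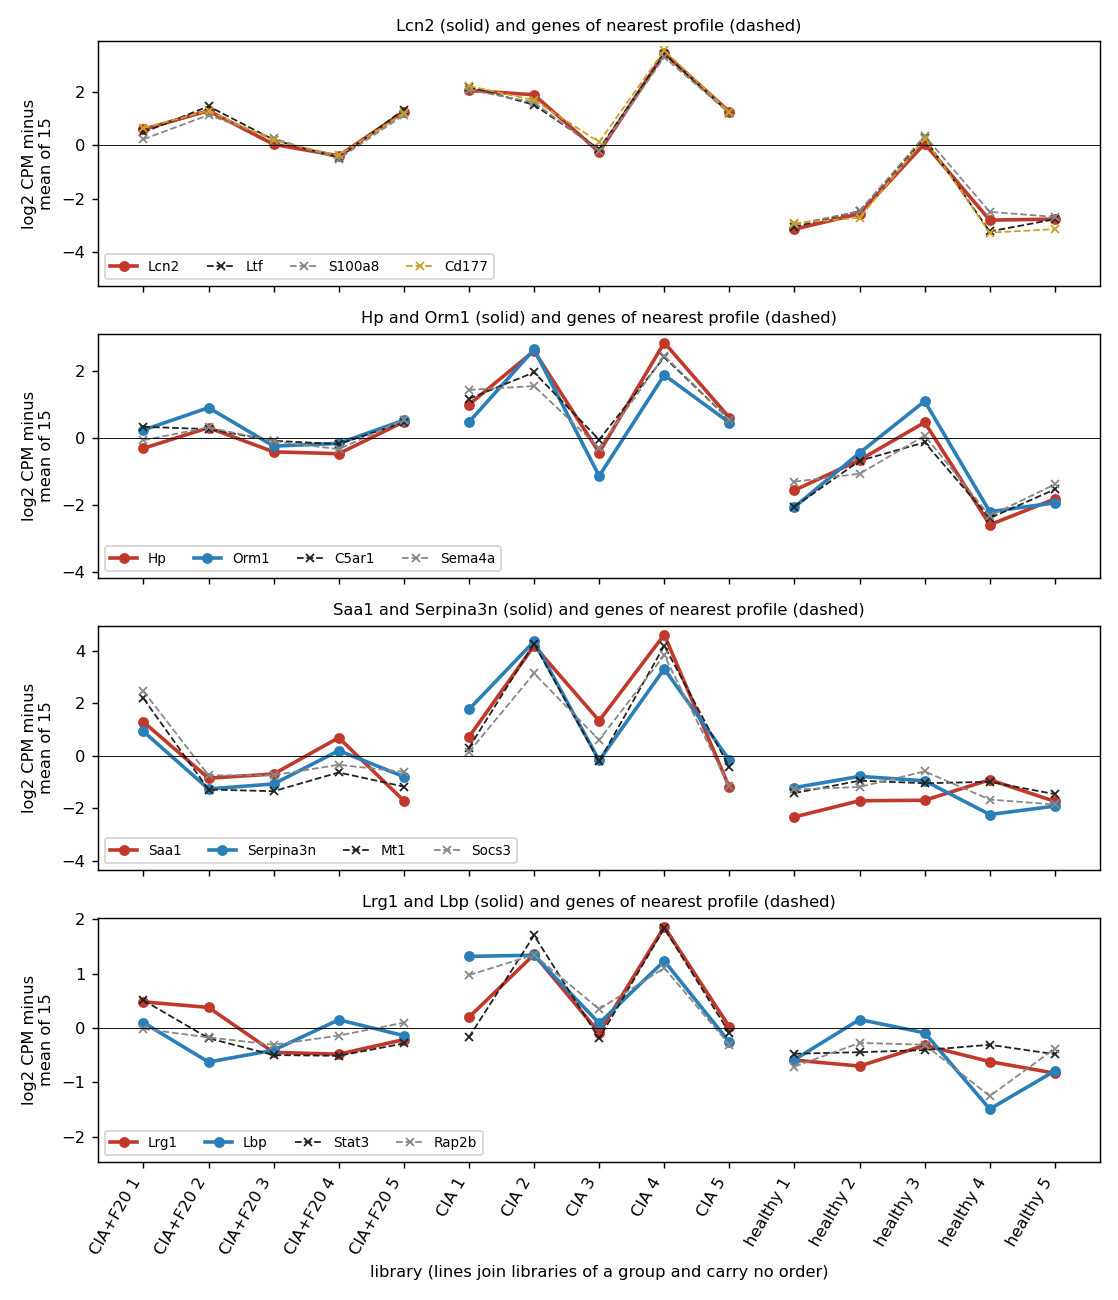
Log2 CPM minus the mean of the 15 libraries for Lcn2, Hp, Orm1, Saa1, Serpina3n, Lrg1 and Lbp (solid) and genes of the nearest profiles (dashed), with CIA+F20, CIA and healthy libraries from left to right. Saa1 and Serpina3n peak in CIA 2 and CIA 4 and, among CIA+F20 libraries, in CIA+F20 1, while Lcn2, Hp and Orm1 have their highest healthy value in healthy 3.

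Serpina3n (ENSMUSG00000021091, chromosome 12, 104372988 to 104380588, plus strand) encodes a secreted inhibitor of serine proteases of leukocyte granules. It had 47.7, 10.4, 11.9, 28.8 and 14.5 CPM in CIA+F20 1 to 5, against 85.6, 513, 22.2, 249 and 22.5 CPM in CIA 1 to 5. Healthy 1 to 5 had 10.8, 14.6, 13.0, 5.29 and 6.62 CPM. Every CIA library was above every healthy one, and CIA+F20 1 and CIA+F20 4 lay within the CIA range while the other CIA+F20 libraries lay within the healthy range. The means were 22.7 ± 15.8 CPM in CIA+F20, 179 ± 209 in CIA and 10.1 ± 4.00 in healthy (SD, n = 5 each). Serpina3n rose in CIA against healthy by 4.14 ± 0.83 (log2, edgeR adjusted p = 0.00154) and fell in CIA+F20 against CIA by 2.98 ± 0.79 (log2, edgeR adjusted p = 0.0144). It was the acute-phase gene whose fall with F20 stayed past the threshold whichever of the 15 libraries was left out, with log2 fold changes from -3.44 to -2.06, the smallest without CIA 2 (edgeR adjusted p = 0.0486). Serpina3n stood at a log2 fold change of 1.17 ± 0.76 in CIA+F20 against healthy (edgeR adjusted p = 0.724). The gene has close copies in the same cluster, but 0.186% of its 100-base windows occur in another gene.

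Among the 9 genes, 3 had every CIA library above every healthy one (Saa3, Serpina3n and Lrg1), where 11.7% of all tested genes did. None had every CIA library below every healthy one (12.5% of all tested genes). No acute-phase gene had every CIA+F20 library below every CIA one, where 5.32% of all tested genes did, or above (8.28%). Against healthy, no acute-phase gene had every CIA+F20 library below, where 1.27% of all tested genes did, and Saa3 alone had every one above. Saa3 passed the filter on low counts only through arthritic libraries.

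Lcn2, Hp and Orm1 were highest among healthy libraries in healthy 3, the healthy library with most granulocyte and keratinocyte transcripts, and so were Saa3 and Lrg1. Lcn2 (ENSMUSG00000026822, chromosome 2, 32274645 to 32278264, minus strand) encodes neutrophil gelatinase-associated lipocalin, which starves bacteria of siderophore-bound iron. It had 64.2, 104, 43.5, 32.2 and 102 CPM in CIA+F20 1 to 5, against 177, 158, 35.5, 467 and 102 CPM in CIA 1 to 5 and 4.71, 7.08, 44.2, 5.98 and 6.16 CPM in healthy 1 to 5. Healthy 3 stood apart from the other healthy libraries and above CIA 3. Lcn2 means were 69.2 ± 33.1 CPM in CIA+F20, 188 ± 166 in CIA and 13.6 ± 17.1 in healthy (SD, n = 5 each). Lcn2 rose in CIA against healthy by 3.78 ± 0.77 (log2, edgeR adjusted p = 0.00166). Its log2 fold change in CIA+F20 against CIA was -1.44 ± 0.70 (95% interval -2.96 to 0.08, edgeR adjusted p = 0.125), which did not pass, and in CIA+F20 against healthy it was 2.34 ± 0.73 (edgeR adjusted p = 0.345; DESeq2 adjusted p = 0.0494). Without CIA 4 the value of CIA+F20 against CIA was -0.77 (edgeR adjusted p = 0.406), and without healthy 3 that of CIA+F20 against healthy was 3.53 (edgeR adjusted p = 0.0368).

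The genes most like Lcn2 over the 15 libraries were the neutrophil granule protein gene Ltf, lactoferrin (root-mean-square difference 0.182 log2 units), the neutrophil calgranulin S100a8 (0.197) and the neutrophil surface protein gene Cd177 (0.219), against a spread of Lcn2 itself of 2.02. Lcn2 and Ltf had the same library order in CIA (4, 1, 2, 5, 3) and in CIA+F20 (2, 5, 1, 3, 4). Per 100 CPM of the 10 granulocyte precursor markers, Lcn2 had 8.16 to 15 CPM in the 15 libraries, a 1.84-fold range, while its own level ranged 99.1-fold. All 10 precursor markers and 11 of 11 tested mature neutrophil markers were called higher in CIA than in healthy, and 0 of 10 and 3 of 11 were called lower in CIA+F20 than in CIA. The shares over all tested genes were 26% higher in CIA and 15.5% lower in CIA+F20 against CIA. The part of these markers, or of the keratinocyte markers, in the Lcn2 values was not tested.

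**Figure D4:**
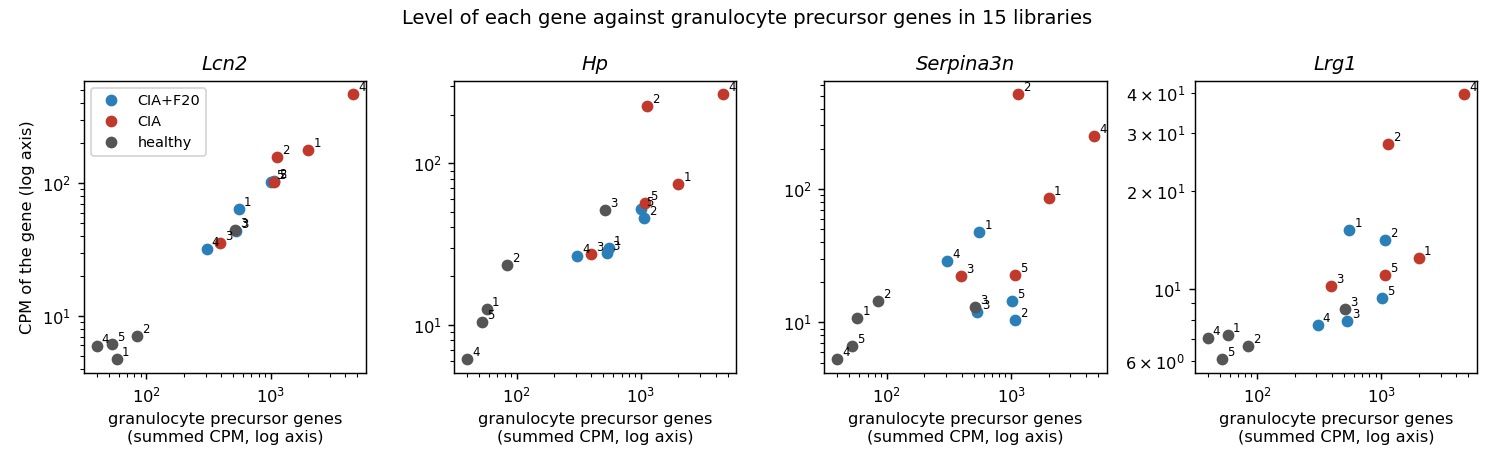
Level of Lcn2, Hp, Serpina3n and Lrg1 (CPM, log axis) against the summed level of the 10 granulocyte precursor markers (CPM, log axis) in the 15 libraries, coloured by CIA+F20, CIA and healthy. Lcn2 keeps 8.16 to 15 CPM per 100 CPM of the markers, while Serpina3n ranges from 0.978 to 45.6.

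Hp (ENSMUSG00000031722, chromosome 8, 110301760 to 110305804, minus strand) encodes the plasma protein that captures free haemoglobin. It had 30.0, 45.9, 27.8, 26.8 and 51.9 CPM in CIA+F20 1 to 5, against 74.1, 225, 27.4, 267 and 56.7 CPM in CIA 1 to 5 and 12.5, 23.5, 51.2, 6.10 and 10.5 CPM in healthy 1 to 5. As for Lcn2, healthy 3 was the highest healthy library and CIA 3 the lowest CIA one. Hp averaged 36.5 ± 11.6 CPM in CIA+F20, 130.1 ± 108 in CIA and 20.8 ± 18.2 in healthy (SD, n = 5 each). Hp rose in CIA against healthy by 2.64 ± 0.64 (log2, edgeR adjusted p = 0.0045) and fell in CIA+F20 against CIA by 1.84 ± 0.62 (log2, edgeR adjusted p = 0.0389). The fall was no longer called without CIA 2, CIA 4 or CIA+F20 1, 2, 3 or 4, with edgeR adjusted p from 0.061 to 0.111. Against healthy, CIA+F20 libraries differed by 0.81 ± 0.61 (log2, edgeR adjusted p = 0.791). The genes most like Hp were C5ar1, the receptor of the complement fragment C5a (0.375), Sema4a (0.392) and Pik3cg (0.437). Per 100 CPM of granulocyte precursor markers, Hp ranged 7.56-fold, from 3.69 to 27.9 CPM, against 43.8-fold for its own level.

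Orm1 (ENSMUSG00000039196, chromosome 4, 63262797 to 63266400, plus strand) encodes alpha-1-acid glycoprotein, a carrier of small lipophilic molecules in plasma. Its levels were low: 1.90, 3.07, 1.34, 1.43 and 2.35 CPM in CIA+F20 1 to 5, against 2.26, 10.4, 0.691, 6.10 and 2.23 CPM in CIA 1 to 5 and 0.328, 1.16, 3.52, 0.290 and 0.364 CPM in healthy 1 to 5. Healthy 3 lay above CIA 1, CIA 3 and CIA 5. Orm1 averaged 2.02 ± 0.713 CPM in CIA+F20, 4.34 ± 3.94 in CIA and 1.13 ± 1.38 in healthy (SD, n = 5 each). Orm1 rose in CIA against healthy by 1.91 ± 0.73 (log2, edgeR adjusted p = 0.0453). That call was the least stable of the 8: it held only without healthy 3 (where the log2 fold change was 2.97), CIA 1, CIA 3 or CIA 5, and leaving out any other library gave an edgeR adjusted p from 0.0529 to 0.164, the highest without CIA 2 (log2 fold change 1.29). The log2 fold change was -1.11 ± 0.71 in CIA+F20 against CIA (edgeR adjusted p = 0.237) and 0.80 ± 0.73 in CIA+F20 against healthy (edgeR adjusted p = 0.857). Hp was the gene most like Orm1 (0.473), and no 2 of the 8 tested acute-phase genes were closer to each other. Of the 100-base windows of Orm1, 6.47% also occur in Orm2, which had 256 reads in CIA 2 and 62 in CIA 4 and at most 4 elsewhere, and Orm1 overlaps the minus-strand noncoding gene Gm52743.

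Of the 8 tested genes, Lrg1 and Lbp had the smallest fold changes in CIA against healthy, and differed least between CIA libraries, 3.88-fold and 3.04-fold. Lrg1 (ENSMUSG00000037095, chromosome 17, 56426678 to 56429001, minus strand) encodes a secreted glycoprotein that modifies transforming growth factor beta signalling in endothelium. It had 15.2, 14.1, 7.92, 7.74 and 9.34 CPM in CIA+F20 1 to 5, against 12.4, 27.8, 10.2, 39.6 and 11.0 CPM in CIA 1 to 5 and 7.17, 6.64, 8.67, 7.03 and 6.06 CPM in healthy 1 to 5. Every CIA library was above every healthy one, and CIA 2 and CIA 4 stood above the other CIA libraries. Lrg1 averaged 10.9 ± 3.53 CPM in CIA+F20, 20.2 ± 13.0 in CIA and 7.11 ± 0.973 in healthy (SD, n = 5 each). Lrg1 rose in CIA against healthy by 1.51 ± 0.36 (log2, edgeR adjusted p = 0.00379). In CIA+F20 against CIA its log2 fold change was -0.90 ± 0.35 (edgeR adjusted p = 0.0632; DESeq2 adjusted p = 0.0358). It passed without CIA 1, CIA 3 or CIA 5, with an edgeR adjusted p of 0.0261 at the lowest, and shrank to -0.50 without CIA 4 (edgeR adjusted p = 0.223). Between CIA+F20 and healthy it was 0.61 ± 0.35 (edgeR adjusted p = 0.674). Stat3 was the gene most like Lrg1 (0.247), followed by Gda (0.26) and Coq8b (0.267). Lrg1 overlaps the plus-strand noncoding gene Gm56918.

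Lbp (ENSMUSG00000016024, chromosome 2, 158148413 to 158174772, plus strand) encodes the plasma protein that hands lipopolysaccharide to CD14. It had 20.3, 12.2, 14.2, 21.0 and 17.2 CPM in CIA+F20 1 to 5, against 47.3, 48.1, 20.1, 44.6 and 15.8 CPM in CIA 1 to 5 and 12.6, 21.1, 17.8, 6.68 and 10.9 CPM in healthy 1 to 5. CIA 1, 2 and 4 were above every other library, and CIA 3 and CIA 5 lay within the healthy range. Lbp averaged 17.0 ± 3.79 CPM in CIA+F20, 35.2 ± 15.9 in CIA and 13.8 ± 5.69 in healthy (SD, n = 5 each). Lbp rose in CIA against healthy by 1.34 ± 0.34 (log2, edgeR adjusted p = 0.00593) and fell in CIA+F20 against CIA by 1.05 ± 0.34 (log2, edgeR adjusted p = 0.0328). The fall was no longer called without CIA 1, 2 or 4 or CIA+F20 2, 3 or 5, with edgeR adjusted p from 0.0577 to 0.0831. Against healthy, the CIA+F20 libraries differed by 0.29 ± 0.34 (log2, edgeR adjusted p = 0.908). Its nearest profiles were Rap2b (0.265), the endocytic adaptor Dab2 (0.282) and Tmem106a (0.293). Per 100 CPM of granulocyte precursor markers, Lbp ranged 26-fold and Lrg1 28.4-fold, more than their own levels did (7.19-fold and 6.54-fold).

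The signals known to switch these genes on were read from a list of cytokines. All 6 tested inducing cytokines were called higher in CIA than in healthy, and 3 of the 6 were called lower in CIA+F20 than in CIA, where 26% and 15.5% of all tested genes were. Il6, the main inducer of the liver response, had 3.16, 0.205, 0.212, 0.444 and 0.273 CPM in CIA+F20 1 to 5, against 0.277, 6.54, 1.04, 18.6 and 0.177 CPM in CIA 1 to 5 and 0.123, 0.0681, 0.0697, 0.232 and 0.132 CPM in healthy 1 to 5. CIA 2 and CIA 4 held most of it, as they did for the amyloid A genes. Il6 rose in CIA against healthy by 5.44 ± 1.35 (log2, edgeR adjusted p = 0.00509), and its log2 fold change in CIA+F20 against CIA was -2.64 ± 1.09 (edgeR adjusted p = 0.0772). Leaving out 1 library moved that value from -4.20 without CIA+F20 1, which passed, as it did without CIA 5, to -1.25 without CIA 4 (edgeR adjusted p = 0.36). The gp130 cytokine genes Lif and Il11 rose in CIA by 2.70 ± 0.56 and 1.98 ± 0.61 and fell in CIA+F20 against CIA by 2.72 ± 0.56 and 2.34 ± 0.63 (log2; edgeR adjusted p = 0.00176, 0.0167, 0.0051 and 0.0152), but the rise of Il11 was no longer called without CIA 4 (log2 fold change 1.51, edgeR adjusted p = 0.0557). Il1b rose in CIA by 4.01 ± 0.83 (log2, edgeR adjusted p = 0.00179) and stood at -1.89 ± 0.73 in CIA+F20 against CIA (log2, edgeR adjusted p = 0.0636), or -1.23 without CIA 4 (edgeR adjusted p = 0.211); it passed without CIA 1, 3 or 5. Osm, the third cytokine gene called lower, rose in CIA by 2.84 and fell in CIA+F20 against CIA by 1.375 (log2, edgeR adjusted p = 0.00117 and 0.0474). That fall was no longer called in 10 of 15 fits with 1 library left out, with edgeR adjusted p up to 0.153. Tnf rose in CIA by 1.84 and stood at -1.08 in CIA+F20 against CIA (log2, edgeR adjusted p = 0.0178 and 0.138). Il22 was not analysed here.

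Receptors, transcription factors and feedback genes of the same signals were read in the same way. Of 10 tested receptor genes of these cytokines, 8 were called higher in CIA and 8 lower in CIA+F20 against CIA, and of 14 transcription factors and feedback genes 13 and 10 were. The shares over all tested genes were 26% and 15.5%. Of the 8 receptors called lower, Il6ra, Il6st, Il1r1, Osmr and Tnfrsf1a were followed with libraries left out, and without CIA 2 none of these 5 was called (edgeR adjusted p from 0.0697 for Il1r1 to 0.117 for Il6ra). Nfkbiz, a coactivator of NF-kB at acute-phase genes such as Lcn2, rose by 1.80 ± 0.30 in CIA (log2, edgeR adjusted p = 0.000538) and fell by 1.50 ± 0.29 in CIA+F20 against CIA (log2, edgeR adjusted p = 0.0043). Cebpd rose in CIA by 2.40 ± 0.47 and fell in CIA+F20 against CIA by 1.31 ± 0.45 (log2, edgeR adjusted p = 0.00126 and 0.0406), and Stat3 rose by 1.35 ± 0.39 and fell by 1.07 ± 0.39 (0.0114 and 0.0486). The fall of Cebpd was no longer called without CIA 2 or 4, CIA+F20 2, 3, 4 or 5, or healthy 1 or 2, and that of Stat3 without any library other than CIA 1, 3 or 5 or CIA+F20 1, with edgeR adjusted p up to 0.125 and 0.155, both without CIA 4. Socs3 had 101, 10.8, 10.9, 14.4 and 11.9 CPM in CIA+F20 1 to 5, against 20.1, 160, 27.6, 259 and 8.12 CPM in CIA 1 to 5 and 7.46, 7.97, 12.1, 5.69 and 5.00 CPM in healthy 1 to 5. CIA+F20 1, the CIA+F20 library with most Saa3, Saa1 and Serpina3n, was also the one with most Socs3, Il6 and Mt1.

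Genes of proteins that receive or carry the acute-phase proteins were read next. Of 14 tested receptor and partner genes, 9 were called higher and 2 lower in CIA, where 26% and 19.5% of all tested genes were. In CIA+F20 against CIA 1 was called higher and 5 lower, where 14.1% and 15.5% of all tested genes were. The 2 lower in CIA and the 1 higher in CIA+F20 were smaller shares than over all genes. Cd14, which takes lipopolysaccharide from Lbp, rose in CIA by 2.85 ± 0.44 and fell in CIA+F20 against CIA by 1.74 ± 0.42 (log2, edgeR adjusted p = 0.00038 and 0.00952). Fpr2, a formyl peptide receptor that binds amyloid A, rose in CIA by 3.80 ± 0.70 (log2, edgeR adjusted p = 0.000914) and stood at -1.50 ± 0.62 in CIA+F20 against CIA (log2, edgeR adjusted p = 0.0775), or -0.92 without CIA 4 (edgeR adjusted p = 0.26); it passed without CIA 3 or healthy 3. Cd163, the macrophage receptor that clears haptoglobin bound to haemoglobin, had log2 fold changes of 0.02 ± 0.34 and 0.06 ± 0.34 in the same comparisons (edgeR adjusted p = 0.965 and 0.896), and Slc22a17, a receptor for Lcn2, 0.38 ± 0.37 in CIA (edgeR adjusted p = 0.418). Mmp9, whose protein forms a complex with the Lcn2 protein, rose in CIA by 4.28 ± 0.54 and fell in CIA+F20 against CIA by 2.13 ± 0.49 (log2, edgeR adjusted p = 0.000203 and 0.00827).

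Other acute-phase genes were read from a list of 28, of which 14 were tested, 9 called higher in CIA, where 26% of all tested genes were, and 3 lower in CIA+F20 against CIA, where 15.5% were, so that the second count is near the share over all genes. Timp1, an inhibitor of matrix metalloproteinases, rose in CIA by 4.72 ± 0.84 and fell in CIA+F20 against CIA by 3.29 ± 0.77 (log2, edgeR adjusted p = 0.000769 and 0.00892), and Il1rn, the interleukin-1 receptor antagonist, by 4.17 ± 0.47 and 2.10 ± 0.41 (0.000154 and 0.00433). Chil1 rose by 4.07 and fell by 2.64 (0.000646 and 0.0108). Mt1 and Serpina3g rose by 4.17 and 3.63 (0.0059 and 0.00144), and their values in CIA+F20 against CIA, -2.65 and -1.31, were not called (0.0559 and 0.123). Complement C3 rose in CIA by 1.40 ± 0.41 (log2, edgeR adjusted p = 0.0123), and the copper carrier Cp stood at 0.16 ± 0.16 (log2, edgeR adjusted p = 0.433). Steap4, Ptx3 and Tnfaip6 were not called in CIA either, at 0.57, 1.14 and 1.03 (log2, edgeR adjusted p = 0.236, 0.0744 and 0.161). Genes that the liver alone makes in quantity were at or near 0. Crp had at most 4 reads in any library, Saa4 at most 5 and Apcs 1 read in all 15. Alb, albumin, had 7, 106, 1, 0 and 2 reads in CIA+F20 1 to 5, against 2, 1, 1, 9 and 2 in CIA 1 to 5 and 1, 0, 7, 1 and 1 in healthy 1 to 5. Fga, a fibrinogen chain, had 21 reads in CIA+F20 2 and at most 6 elsewhere. The 10 hepatocyte markers, of which 3 were tested and none called, summed to 9.06 to 29.5 CPM in CIA+F20, 5.11 to 23.9 in CIA and 4.07 to 14.5 in healthy, and Cyp2e1 and Serpina1b had reads in every library while Alb, Apoa1, Apoa2, Ttr, Ahsg, Fgb, Serpina1d and Cps1 were at 0 in some. CIA 2 and CIA 4, the CIA libraries with most Saa3, had the lowest hepatocyte sums of the CIA group, 5.81 and 5.11 CPM. In CIA 5, which had the highest sum, 23.9 CPM, Alb gave 0.0709 and Ahsg 0.0355 CPM, and Apoa1, Apoa2, Ttr and Fgb 0. Nearly all of that sum thus came from other markers of the list. From high to low the CIA sums ran 5, 1, 3, 2, 4, as did those of adipocyte markers. Yet CIA 2 and CIA 4 held the most CIA reads of Saa4 (5 each) and Fga (6 in CIA 2, 3 in CIA 4). They also held the most of Orm2 (256 and 62), Serpina3m (162 and 47), Itih4 (120 and 94) and Hpx (29 and 16). Fgb was highest in CIA 1 (4 reads). Alb was highest of the CIA group in CIA 4 (9 reads) and Crp in CIA 3 (3 reads). CIA+F20 2, the library with most albumin and fibrinogen reads, was among the CIA+F20 libraries with least Saa3 (0.409 CPM) and Serpina3n (10.4 CPM) and had the most Orm1 (3.07 CPM) and Lcn2 (104 CPM). Healthy 3, with the highest hepatocyte sum of the healthy group, 14.5 CPM, had the most healthy Saa3 (0.139 CPM, 4 reads). Of that sum, Alb and Ahsg gave 0.244 CPM each. The part of liver transcripts in the acute-phase results was not tested.

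Macrophage and muscle markers were called in the same comparisons, and few fibroblast and no adipocyte markers were. All 9 tested macrophage markers were called higher in CIA and 7 of 9 lower in CIA+F20 against CIA, with sums of 278 to 461 CPM in CIA+F20, 443 to 1140 in CIA and 84.2 to 312 in healthy. Of 10 fibroblast markers 1 was called higher in CIA and 1 lower in CIA+F20 against CIA, with sums of 1625 to 2717, 1788 to 8032 and 469 to 3448 CPM in CIA+F20, CIA and healthy, the lowest in healthy 4. None of 8 adipocyte markers was called, and their sums were 237 to 329, 132 to 311 and 229 to 423 CPM. Of 12 muscle markers 7 were called lower in CIA and 4 higher in CIA+F20 against CIA. Of all tested genes, 26% were called higher and 19.5% lower in CIA, and 14.1% higher and 15.5% lower in CIA+F20 against CIA. Markers not called still shifted. Median log2 fold changes in the 2 comparisons were 0.99 and -1.27 for fibroblast and -0.82 and 0.84 for adipocyte markers. They were 1.91 and -1.14 for macrophage and -0.65 and 0.40 for muscle markers. The part of these cell types in the acute-phase results was not tested.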

How the data were processed

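Messenger RNA of forelimb joints was read in 15 libraries, 5 per group, and columns of the count table were matched to libraries by title. Per the submitters' processing notes, reads were processed with fastp 0.23.2, HISAT2 2.2.1 and featureCounts 2.0.3 on GRCm39. Annotation release, strand setting and the handling of reads with several matches are not stated in those notes. Values in the deposited table are unnormalized whole-number counts of reads per gene, and 0 columns belonged to other samples. Library totals ran from 18627303 to 34247317 reads, and low genes such as Saa2 carry wide counting error.

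In R 4.3.3 with edgeR 4.0.16, counts were scaled by TMM and filtered by filterByExpr (minimum count 10), leaving 15770 genes. The 3 groups were fitted together without covariates, and contrasts were tested with the quasi-likelihood test and Benjamini-Hochberg adjustment over all tested genes. A gene was called at an adjusted p under 0.05. Saa2, under the filter, was tested by an exact two-sided permutation of CPM, adjusted over the 3 comparisons. Likeness was the root-mean-square difference of centred log2 CPM (prior count 2) over the 15 libraries, among tested genes with a mean log2 CPM of at least 1 and no provisional symbol; the 3 nearest were named per gene. The other named genes came from the inducing, receptor, transcription and partner lists, all of which may be named. Added to them were the 10 most abundant tested genes of the other acute-phase list and a few liver genes. Orm2, Crp, Saa4, Apcs, Fga, Serpina3m, Itih4 and Hpx were named after their values were seen. Canonical transcripts of GENCODE vM39 gave lengths and sequence identity. Alternatives were other scalings, filters, DESeq2 1.42.0, fits of fewer libraries and a replicate block.

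The genes and lists were chosen with earlier results of these data known, so their direction is not independent evidence.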

Additional observations from a re-analysis of the deposited data

Results flagged for a closer look

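In 45 sets of 5 libraries (9 acute-phase genes and 6 genes named beside them, in 3 groups), a single library stood far from the others of its group 8 times, 3 of them among the acute-phase genes, by Dixon's test at the 95% level. Chance gives about 1 in 20 such sets if values follow a normal distribution. The test was run on CPM without a log, where high values stretch far, and all 8 libraries stood apart on the high side. That rate is therefore not a fair yardstick here. Saa3 reached 126.7 CPM in CIA 2, where the next CIA library had 31.96 CPM. In healthy 3, Lcn2 reached 44.24 CPM (next healthy library 7.08), Orm1 3.518 CPM (next 1.157), Ltf 107.5 CPM (next 16.2) and S100a8 86.91 CPM (next 12.15). In CIA+F20 1, Il6 reached 3.161 CPM (next CIA+F20 library 0.4439), Mt1 178.8 CPM (next 25.3) and Socs3 100.8 CPM (next 14.36). Ltf, S100a8, Mt1 and Socs3 are among the genes nearest in profile to Lcn2 and Saa1 over these libraries, so their sets are not independent of those of the acute-phase genes.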

How the results depend on the processing

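No called result changed direction. Of values not called, Cd163 in CIA against healthy went from 0.02 to -0.34 without CIA 2. In CIA+F20 against CIA, without CIA 3, Cd163 went from 0.06 to -0.11 and Cp from 0.02 to -0.03. Of the acute-phase genes called higher in CIA than in healthy, those other than Orm1 kept their calls in each alternative in which they were tested. The 5 calls of CIA+F20 against CIA were less stable: leaving out single libraries gave 1 to 6, a fit of the 2 groups alone 3 and a fit with a replicate block 0 (Serpina3n adjusted p = 0.0552, edgeR). Same-numbered libraries did not consistently deviate together (correlations -0.395 to 0.243), and no pairing by number is stated. Whether the numbers mark a shared batch was not tested. The block gave 1460 genes lower in CIA+F20 than in CIA, against 2450 without it, and a fit of the 2 groups alone gave 1310 lower and 1364 higher. Leaving out single libraries gave 1405 to 3208 lower and 1478 to 3007 higher. In CIA+F20 against healthy, DESeq2 called 113 genes higher and 11 lower, 2 acute-phase genes among the higher ones, where leaving out single libraries gave 0 to 105 higher, 0 to 2 lower and 0 to 1 of the acute-phase genes. For Saa2, leave-one-out log2 ratios were 5.40 to 7.10 in CIA over healthy, -4.09 to -2.66 in CIA+F20 over CIA and 1.90 to 3.86 in CIA+F20 over healthy. Its log2 ratio was 6.68 without healthy 3 and healthy 4 in CIA over healthy (exact permutation p = 0.125). With healthy as the smaller group that p could not pass the threshold. The log2 ratio was -3.20 in CIA+F20 over CIA by edgeR with no filter (adjusted p = 0.0321). Depth limits Saa1, Saa2 and healthy Saa3 most, at a few reads per library.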
